A study of Arabidopsis thaliana with 69 samples.

Results

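The tubulin genes of Arabidopsis thaliana were followed through the induction of xylem vessel formation. Members were all genes whose symbol is TUA, for an alpha tubulin, or TUB, for a beta tubulin, followed by a number, and that had a probe set naming that gene alone. This gave 7 genes of the 13356 with a probe set of their own, namely the alpha tubulins TUA1 and TUA6 and the beta tubulins TUB1, TUB5, TUB6, TUB7 and TUB9. The reference gene table lists 15 such genes, 6 alpha and 9 beta. TUA3 and TUA5 share 1 probe set, which is described beside the members and not counted among them. The other 6, TUA2, TUA4, TUB2, TUB3, TUB4 and TUB8, were not analysed here. Each member had 1 probe set.

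Expression was measured on 69 Affymetrix ATH1 arrays, in 23 groups of 3 labelled biological replicates, from plants of the Col-0 background. The VND7 line carried VND7-VP16-GR, the xylem transcription factor VND7 joined to the VP16 activation domain and the glucocorticoid receptor, expressed from the 35S promoter, which is active in most tissues. Dexamethasone (DEX) lets such a fusion enter the nucleus. The empty-vector line carried VP16-GR. DEX cultures received 10 µM and DMSO cultures the solvent alone, after 6 days of growth in darkness in shaken liquid medium with sucrose, and this pre-culture was common to all groups. In the VND7 line, DEX and DMSO cultures were harvested after 1, 3, 6, 9, 12, 24, 30 and 48 h, and further DMSO cultures at 0 h, which makes 24 DEX and 27 DMSO arrays. In the empty-vector line, both treatments were harvested after 9, 12 and 24 h, which makes 18 arrays. The labels name hypocotyl as the tissue, while the protocol describes the milling of whole decanted cultures. No hypocotyl markers were listed, so the tissue label was not tested. They do not say how many independent transgenic lines were used or whether the replicate cultures were grown on separate days, so the p-values measure the spread between these cultures.

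Microtubules are hollow filaments built from pairs of 1 alpha and 1 beta tubulin. In growing plant cells, microtubules under the plasma membrane guide the enzymes that lay down cellulose. In a differentiating vessel cell they gather into bands, and the thick secondary wall is deposited over those bands while the gaps between them become pits or bare primary wall. The vessel cell then dies and its contents, microtubules included, are lost. VND7 is a NAC transcription factor that can switch other cell types to this fate.

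All values are log2 signals, so a difference of 1 is a doubling. The brightness of a probe set depends on its probes, so levels are compared between arrays and never between genes. Changes are DEX minus DMSO of the same line and time, with the standard error of the limma fit. A call needed an adjusted p under 0.05, by Benjamini-Hochberg over 22746 probe sets, together with a change of 1 or more in either direction. Where it is said that all DEX arrays lay above all DMSO arrays, this held for 15.9%, 16.7%, 22.2%, 16.9% and 22.8% of all probe sets at 3, 6, 9, 12 and 30 h. All DEX arrays lay below all DMSO arrays for 24.6%, 17.1%, 28.5%, 24.5% and 25.8% at these times.

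Of the 51 VND7 line arrays, 10 went against their treatment label over all probe sets other than those of tubulins. Each was closer, on average, to arrays of the other label, or had mostly arrays of the other label among its 3 nearest. On the DEX side these were replicates 2 and 3 at 1 h, replicate 2 at 24 h and the whole 48 h group. On the DMSO side they were replicate 3 at 0 h, replicate 2 at both 1 and 6 h, and replicate 1 at 24 h. A listed gene is termed measured where a probe set names it alone in the table of gene names used. Other listed genes may still be on the array. Of 20 listed xylem vessel markers 5 were measured (GUT2, IRX15, IRX15-L, TBL34 and AT1G66810). In this set their mean was 4.57 to 5.18 on the 48 h DEX arrays and replicate 3 of the 1 h DEX group, and 9.91 to 10.16 on the 3 DMSO arrays of 1, 6 and 24 h. The other 3 lay between these levels, with 7.11 on DEX 1 h replicate 2, 7.04 on DEX 24 h replicate 2 and 7.60 on DMSO 0 h replicate 3. On the 18 empty-vector arrays it was 4.31 to 4.57. The check was of treatment labels and not of times. The labels were kept, and tubulin results are also given without these 10 arrays. No array of the 3, 9, 12 and 30 h comparisons is among them, so the changes there stay the same and only the shared spread narrows, for TUB5 to a standard error of 0.38, against 1.01 with all arrays. Without them 30.6%, 30.6%, 30.7%, 31.9%, 26.2%, 30.4% and 29.6% of all probe sets were called at 1, 3, 6, 9, 12, 24 and 30 h. Array medians were 4.89 to 5.60.

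At 6 h the beta tubulin TUB9 had risen, at 30 h TUB1, TUB5, TUB6 and TUB7 had fallen, and neither alpha tubulin with its own probe set was called at any time. In the VND7 line 1 of 7 members was called at 6 h, where 22.5% of all probe sets were called. At 9 h it was 1 of 7, a fall, where 29.5% of all were called, and at 30 h it was 4 of 7, all falls, where 28% of all were called and 15.2% were called as falls. By limma 0 of 7 were called at 1 h (0.0132% of all probe sets), 3 h (27.8%), 12 h (22.2%), 24 h (4.35%) and 48 h (0.0044%). At an unadjusted p under 0.05 the members counted 4 at 3 h, where 48.6% of all probe sets did so, and 1 at 12 h (42.3% of all). They counted 0 at 1 h (7.76%), 24 h (22.9%) and 48 h (6.95%). Change was common in this series, and nothing is read from these counts about tubulins as a class.

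**Figure D1:**
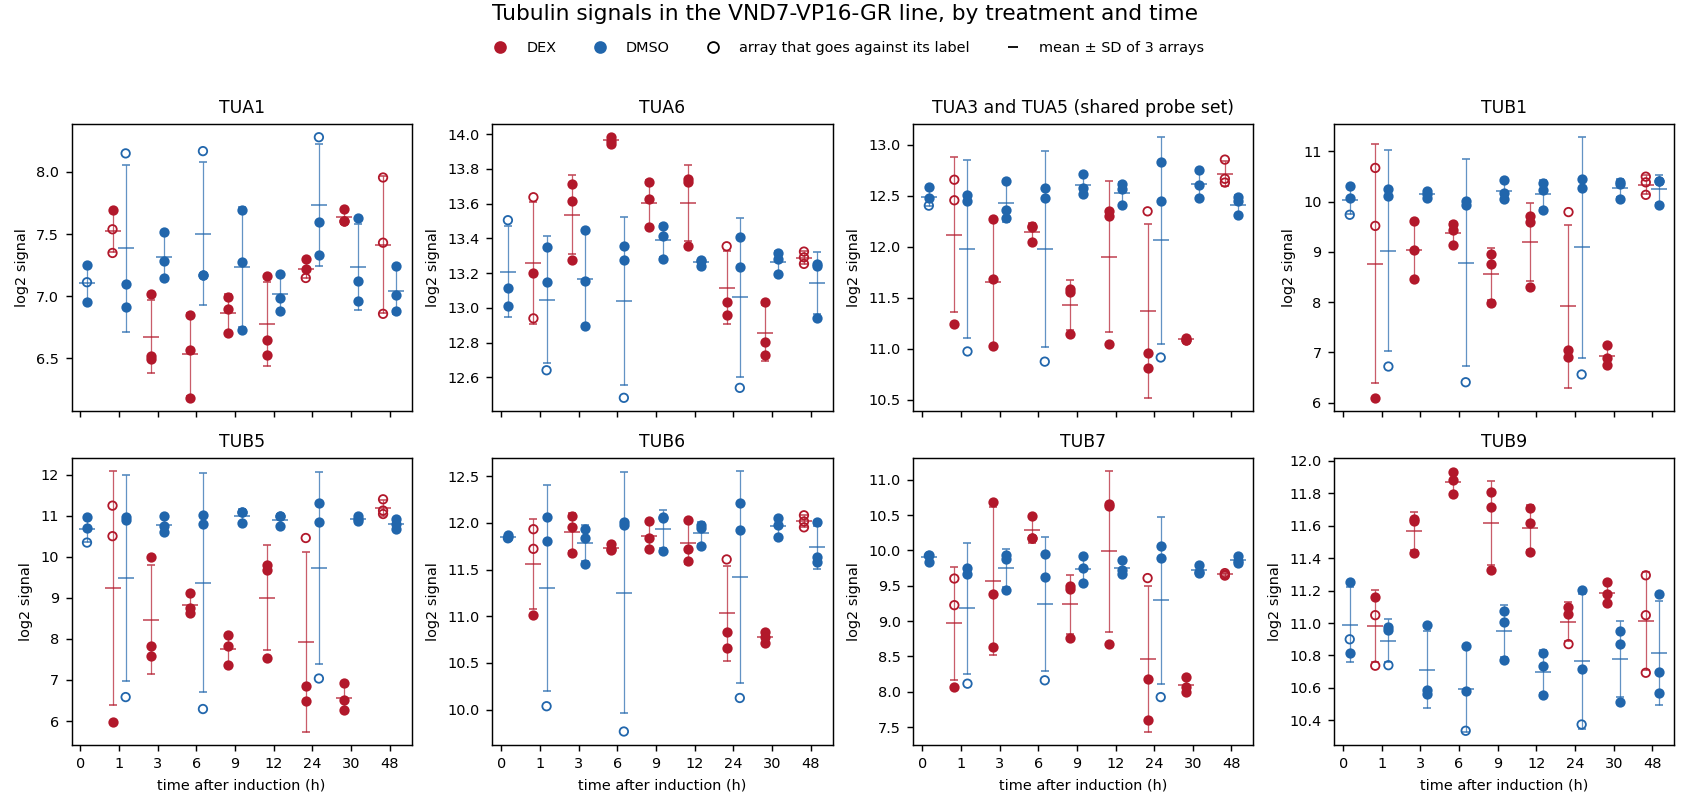
Log2 signal of each tubulin probe set on every VND7 line array against time after induction in h, DEX in red left of DMSO in blue, with the mean and SD of 3 arrays. Open circles are the 10 arrays that went against their label. TUB9 lies at 11.80 to 11.93 on the 6 h DEX arrays, above the DMSO arrays of 6 h, and TUB5 lies at 6.26 to 6.92 on the 30 h DEX arrays, far under the DMSO arrays of 30 h.

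The alpha tubulin TUA6 had a mean signal of 13.31 over the 69 arrays. It is the isotype that is often fused to a fluorescent protein to watch plant microtubules. Its protein is nearly identical to those of TUA2 and TUA4, and whether this probe set also takes up their transcripts was not tested. At 6 h TUA6 had 13.98, 13.95 and 13.96 on the DEX arrays, against 13.36, 12.48 and 13.28 on the DMSO arrays. Every DEX array was above every DMSO array, and the DEX arrays lay within a few hundredths of each other. The change was 0.92 ± 0.18 (1.90-fold, limma adjusted p = 5.4e-05), under the minimum for a call. Without the 6 h DMSO array that went against its label it was 0.65. In the fit that leaves out all arrays against their label, limma gave an adjusted p of 2.2e-05 at this change. The shared spread narrows in that fit, to a standard error of 0.12, against 0.18 with all arrays. With each array centred on its median the change was 1.36 and called.

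By 30 h the TUA6 order was turned round. TUA6 then had 13.03, 12.73 and 12.81 on the DEX arrays, against 13.32, 13.19 and 13.28 on the DMSO arrays. All 3 DEX arrays were below all 3 DMSO arrays, with a change of -0.41 ± 0.18 (adjusted p = 0.0681). After centring the 30 h change was 0.02. Over the 8 DEX times the TUA6 mean was lowest at 30 h (12.86 ± 0.16, SD, n = 3) and highest at 6 h (13.96 ± 0.02). In this order only the step into the 6 h group was free of overlap between neighbouring times.

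The probe set shared by TUA3 and TUA5, whose proteins are known to be identical, fell at 9 h and at 30 h. At 9 h it had 11.14, 11.58 and 11.56 on the DEX arrays, against 12.57, 12.52 and 12.72 on the DMSO arrays. The groups did not overlap and the fall was 2.26-fold (change -1.17 ± 0.38, limma adjusted p = 0.0105). The call ended after centring (-0.62) and without DEX 9 h replicate 1 (-1.03, adjusted p = 0.0525). At 30 h the DEX arrays had 11.11, 11.09 and 11.09, against 12.76, 12.48 and 12.60 on the DMSO arrays. The 30 h fall was 2.86-fold (change -1.52 ± 0.38, adjusted p = 0.00177) and remained called after centring (-1.09).

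TUA1, known as a tubulin of pollen, had changes of the opposite sign to TUA6 at 3, 6, 9, 12 and 30 h on the deposited scale. At 6 h TUA1 had 6.18, 6.56 and 6.85 on the DEX arrays, against 7.17, 8.17 and 7.17 on the DMSO arrays. The DEX arrays were all lower, and the change was -0.97 ± 0.26 (limma adjusted p = 0.00239), just short of the minimum. At 3 h the DEX arrays had 7.02, 6.52 and 6.49, against 7.28, 7.52 and 7.15 on the DMSO arrays, again with no overlap (change -0.64 ± 0.26, adjusted p = 0.0396). Leaving out DMSO 6 h replicate 1, DMSO 6 h replicate 3 or DEX 6 h replicate 3 brought TUA1 past the minimum at 6 h (-1.13 to -1.14), while leaving out the array that went against its label gave -0.64. At 30 h TUA1 had 7.60, 7.70 and 7.61 on the DEX arrays, against 7.63, 6.96 and 7.12 on the DMSO arrays, and the groups overlapped (0.40 ± 0.26, adjusted p = 0.242). After centring the TUA1 changes at 9 and 12 h turned positive, at 0.18 and 0.25, so that TUA1 and TUA6 were both positive at 9, 12 and 30 h. At 24 h the change was -0.52 for TUA1 and 0.06 for TUA6, and without the arrays against their label it was negative for both (-0.21 and -0.32).

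TUB9, another tubulin known from pollen, was the beta tubulin that rose. At 3 h TUB9 had 11.43, 11.64 and 11.63 on the DEX arrays, against 10.56, 10.99 and 10.59 on the DMSO arrays. At 6 h it had 11.93, 11.88 and 11.80 on the DEX arrays, against 10.58, 10.34 and 10.86 on the DMSO arrays. From 3 to 12 h no DEX array overlapped a DMSO array of its time. The rise at 6 h was 2.43-fold (change 1.28 ± 0.17, limma adjusted p = 2.9e-08), and it was 1.15 without the 6 h DMSO array that went against its label.

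The neighbouring times gave smaller values for TUB9 of the same sign. The changes were 0.86 ± 0.17 at 3 h (adjusted p = 5.3e-05), 0.67 at 9 h (adjusted p = 9.7e-04) and 0.89 at 12 h (adjusted p = 4.2e-05), all past the test but under the minimum. After centring, TUB9 was called at 3, 6, 9 and 12 h, with changes of 1.22 to 1.71. At 24 h the groups overlapped (0.24 ± 0.17, adjusted p = 0.412). At 30 h TUB9 had 11.12, 11.18 and 11.25 on the DEX arrays, against 10.87, 10.95 and 10.51 on the DMSO arrays, with a change of 0.41 ± 0.17 (adjusted p = 0.0466). At 30 h TUB9 was thus the member whose DEX arrays all lay above the DMSO arrays, while those of TUA6, TUB1, TUB5, TUB6 and TUB7 all lay below them.

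TUB5 showed the largest falls of the 7 members. At 9 h TUB5 had 7.36, 8.09 and 7.83 on the DEX arrays, against 11.08, 10.82 and 11.10 on the DMSO arrays. At 30 h it had 6.92, 6.26 and 6.52 on the DEX arrays, against 10.88, 10.92 and 11.00 on the DMSO arrays. In both cases the groups were far apart and each group was tight. The fall was 9.47-fold at 9 h (change -3.24 ± 1.01, limma adjusted p = 0.00718) and 20.6-fold at 30 h (change -4.37 ± 1.01, adjusted p = 8.1e-04). In these bulk cultures, fewer cells of a type and less RNA per cell cannot be told apart.

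At 3 and 12 h the DEX arrays disagreed among themselves in TUB5. At 3 h the DEX arrays had 7.59, 10.00 and 7.83, against 10.76, 10.99 and 10.60 on the DMSO arrays, and at 12 h they had 9.80, 7.53 and 9.69, against 10.99, 10.99 and 10.75. Replicate 2 stood apart at both times, high at 3 h and low at 12 h, yet every DEX array was below every DMSO array. Over all probe sets other than those of tubulins, DEX 3 h replicate 2 was nearest to DEX 12 h replicates 1 and 3. DEX 12 h replicate 2 was nearest to DEX 3 h replicate 1 and DEX 9 h replicate 1. The xylem marker means were 12.53, 8.76 and 12.50 at 3 h and 8.91, 12.57 and 8.73 at 12 h. Whether the time labels of these arrays hold was not tested. The TUB5 changes were -2.31 ± 1.01 at 3 h (adjusted p = 0.0601) and -1.90 ± 1.01 at 12 h (adjusted p = 0.148). Without DEX 3 h replicate 2 the 3 h change was -3.08 and called (adjusted p = 0.0214). At 6 h the disagreement was among the DMSO arrays, and TUB5 had 9.12, 8.76 and 8.62 on the DEX arrays, against 11.01, 6.29 and 10.81 on the DMSO arrays. DMSO replicate 2, which went against its label, was the lowest of these 6. Without this array alone the change of -0.54 became -2.08 and was still not called. In the fit that leaves out the 10 arrays TUB5 was called at the same change (limma adjusted p = 6.8e-05).

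TUB1, whose transcript is known to be lowered by light in seedlings, fell at 30 h. At 30 h TUB1 had 7.14, 6.89 and 6.75 on the DEX arrays, against 10.06, 10.36 and 10.39 on the DMSO arrays. The fall was 10.1-fold (change -3.34 ± 0.81, limma adjusted p = 0.00122), with a wide gap between the groups. At 9 h the DEX arrays had 7.98, 8.95 and 8.76, against 10.42, 10.18 and 10.06 on the DMSO arrays, which did not overlap, with a change of -1.66 ± 0.81 (adjusted p = 0.0970). At 3 and 12 h the changes were -1.11 and -0.95, each with all DEX arrays below all DMSO arrays. Without the 10 arrays TUB1 was also called at 3 h (-1.11, adjusted p = 1.5e-04) and 9 h (adjusted p = 1.9e-07), since the standard error fell to 0.24, against 0.81 with all arrays.

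TUB7 fell at 30 h, after a positive change at 6 h that missed the test. At 6 h TUB7 had 10.49, 10.18 and 10.18 on the DEX arrays, against 9.63, 8.16 and 9.95 on the DMSO arrays. All DEX arrays were higher, and the change of 1.04 ± 0.47 did not pass the test (limma adjusted p = 0.0793). It was called after centring (1.47) and without DMSO 6 h replicate 3 (1.39, adjusted p = 0.0363). Without DMSO 6 h replicate 2, at 8.16 and against its label, it was 0.50 and not called in the fit that leaves out the 10 arrays (adjusted p = 0.293). At 30 h TUB7 had 8.00, 8.07 and 8.21 on the DEX arrays, against 9.69, 9.79 and 9.68 on the DMSO arrays. The 30 h fall was 3.09-fold (change -1.63 ± 0.47, adjusted p = 0.00480) and the groups were well separated. After centring the changes at 3 and 9 h were positive, 0.40 and 0.05, against -0.18 and -0.50 as deposited.

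The beta tubulin TUB6 had a mean signal of 11.73 over the 69 arrays. Like TUA6 it has served as a fluorescent marker of microtubules. At 30 h TUB6 had 10.78, 10.83 and 10.71 on the DEX arrays, against 11.98, 11.85 and 12.06 on the DMSO arrays. The fall was 2.28-fold (change -1.19 ± 0.38, limma adjusted p = 0.0106), and both groups were narrow. The call ended after centring (-0.76, adjusted p = 0.0302), since the change then lay under the minimum. At 3, 9 and 12 h the TUB6 groups overlapped, with changes of 0.13, -0.08 and -0.11, of which the last pair turned positive after centring, at 0.47 and 0.38.

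Centring moved the changes of the VND7 line upwards. The median change over all probe sets was 0 as deposited, held there by ties at the floor. After centring it was 0.22 to 0.58 between 3 and 30 h, 0.11 at 1 h and 0.0063 at 48 h. In the empty-vector line centring moved it slightly down, to -0.0099, -0.046 and -0.018 at 9, 12 and 24 h. At 30 h, where it was 0.43, the centred changes were -3.93 for TUB5, -2.91 for TUB1, -1.20 for TUB7, -0.76 for TUB6, 0.02 for TUA6, 0.83 for TUA1 and 0.84 for TUB9.

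**Figure D2:**
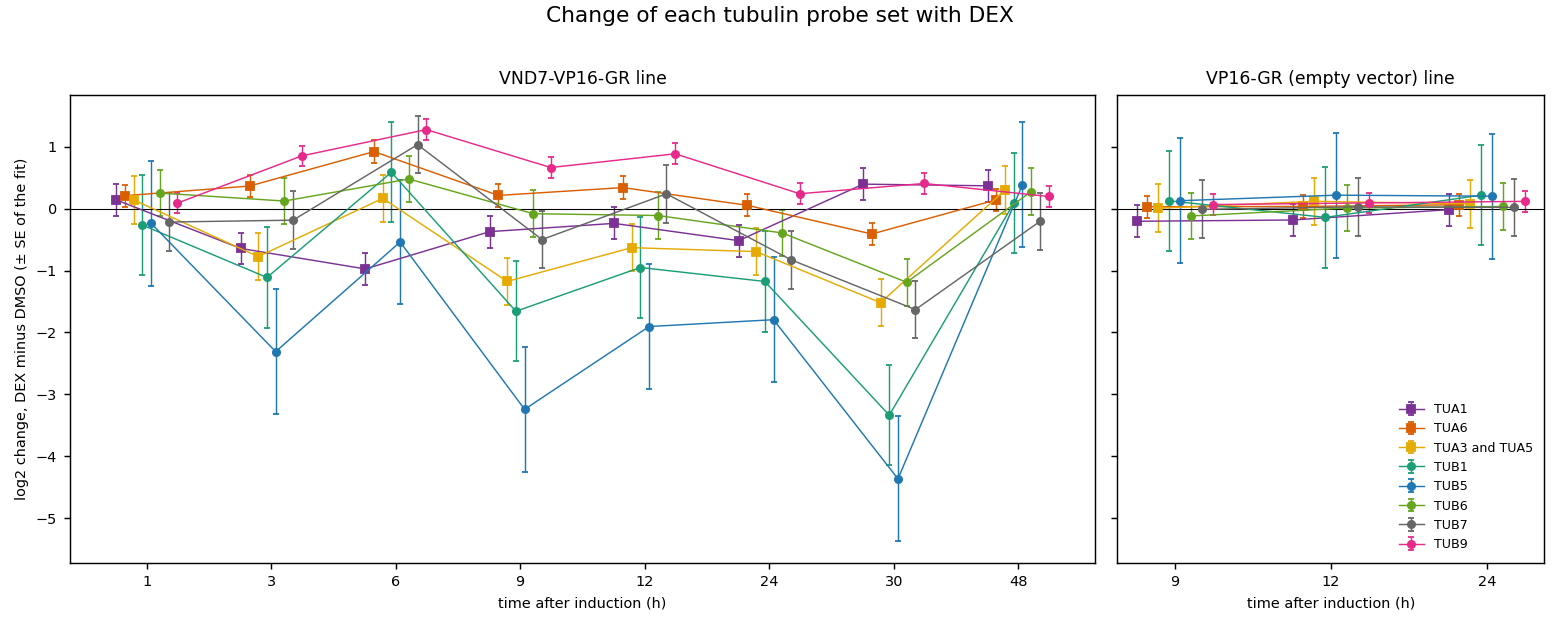
Log2 change, DEX minus DMSO, with the standard error of the fit, against time after induction in h, for the VND7 line (left) and the empty-vector line (right). Squares are alpha and circles beta tubulins. TUB5 reaches -4.37 and TUB9 0.41 at 30 h in the VND7 line, while no empty-vector change exceeds 0.22 in size.

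Both signs of change occurred among the alpha and among the beta tubulins. At 6 h the changes were -0.97 and 0.92 for the 2 alpha tubulins and -0.54 to 1.28 for the 5 beta tubulins, with medians of -0.02 and 0.59. Without the 6 h DMSO array that went against its label the beta median was -0.26, since TUB1 and TUB6 turned to -0.60 and -0.26, against 0.59 and 0.48 with it, and neither was called in either fit. The shared probe set of TUA3 and TUA5 turned likewise, to -0.38, against 0.17 with that array. At 9 h the alpha changes were -0.37 and 0.22 and the beta changes -3.24 to 0.67. At 30 h the alpha changes were 0.40 and -0.41 and the beta changes -4.37 to 0.41, with a beta median of -1.63. The calls were 0 of 2 alpha and 4 of 5 beta tubulins at 30 h. With the shared probe set of TUA3 and TUA5 falling by 1.52 at that time, falls were seen in both chains. Members are not replicates of a chain, so no test was made between the chains.

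The 3 DMSO arrays of 1, 6 and 24 h that went against their label had TUB5 and TUB1 signals close to those of 30 h DEX cultures. On them TUB5 had 6.58, 6.29 and 7.04, and TUB1 had 6.72, 6.41 and 6.56. These lay in or near the 30 h DEX values of 6.26 to 6.92 and 6.75 to 7.14, and far under the 10.60 to 11.32 and 9.84 to 10.45 of the 23 DMSO arrays that went with their label. TUB6 had 10.04, 9.77 and 10.12 on these 3 arrays, below every 30 h DEX array. TUB9 had 10.74, 10.34 and 10.37, also below every 30 h DEX array, and TUA1 had 8.15, 8.17 and 8.28, above all of them.

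DEX arrays against their label showed the opposite. At 1 h TUB5 had 5.98 on DEX replicate 1, and 10.50 and 11.25 on replicates 2 and 3, against 10.90, 6.58 and 10.97 on the DMSO arrays. The change of -0.24 ± 1.01 averages arrays at opposite ends of the range in both groups. Leaving out those against their label kept 1 DEX array against 2 DMSO arrays, with changes of -4.08 for TUB1, -4.95 for TUB5 and -1.64 for TUB7. The shared probe set of TUA3 and TUA5 changed sign in that fit, with -1.23 against 0.14 on all arrays. The fit takes the spread of this single DEX array, replicate 1, from the other groups. Over all probe sets other than those of tubulins, its 3 nearest arrays were DEX 30 h replicates 2 and 3 and DEX 24 h replicate 1. Its xylem marker mean was 11.53, against 11.21 to 11.85 on the 30 h DEX arrays. Whether its time label holds was not tested, so no fall within 1 h is read from these changes.

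At 24 h both groups held 1 such array. TUB5 had 6.50, 10.46 and 6.85 on the DEX arrays, against 7.04, 10.84 and 11.32 on the DMSO arrays, with a change of -1.79 ± 1.01 (limma adjusted p = 0.291). The groups overlapped through DMSO replicate 1. Without the arrays against their label 4 members were called as falls, TUB5 (-4.40), TUB1 (-3.38), TUB7 (-2.08) and TUB6 (-1.33), where 17.1% of all probe sets were called as falls. Leaving out DMSO replicate 1 alone gave the same 4 calls (-3.14, -2.44, -1.51 and -1.04), and leaving out DEX replicate 2 alone gave 2, TUB5 (-3.05) and TUB7 (-1.39). TUB9 had 11.10, 10.87 and 11.06 on the DEX arrays, against 10.37, 10.72 and 11.20 on the DMSO arrays, and was called in none of these fits.

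At 48 h the DEX arrays resembled DMSO arrays, for tubulins as for other probe sets. TUB5 had 11.04, 11.13 and 11.40 on the DEX arrays, against 10.92, 10.68 and 10.80 on the DMSO arrays, and all 3 DEX arrays were the higher ones, as for 9.52% of all probe sets. TUB1 had 10.14, 10.50 and 10.38 on the DEX arrays, against 10.41, 9.93 and 10.41 on the DMSO arrays. The 48 h changes of the 7 members were -0.20 to 0.39, and none was called. GUT2, an enzyme of xylan synthesis, had 6.83, 6.59 and 6.95 on these DEX arrays, against a lowest value of 8.61 on the DEX arrays of 3 to 30 h. No value without these arrays exists at 48 h, since all 3 DEX arrays went against their label.

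Within the 3 and 12 h DEX groups, TUB7 and TUB5 differed between arrays together with GUT2. DEX 3 h replicate 2 and DEX 12 h replicates 1 and 3 had GUT2 at 8.91, 9.05 and 8.90, TUB7 at 10.69, 10.63 and 10.66 and TUB5 at 10.00, 9.80 and 9.69. DEX 3 h replicates 1 and 3 and DEX 12 h replicate 2 had GUT2 at 13.16, 13.16 and 13.15, TUB7 at 8.63, 9.38 and 8.68 and TUB5 at 7.59, 7.83 and 7.53. TUB9 was 11.43 to 11.71 on all 6 of these arrays and differed little. The 9 h arrays, with GUT2 at 13.21 to 13.37, had TUB7 at 8.76, 9.50 and 9.46. The 6 h arrays went the other way for TUB7, which was 10.18 to 10.49 with GUT2 at 11.84 to 12.52. DEX 24 h replicate 2, which went against its label, had GUT2 at 8.61 with TUB7 at 9.61, below TUB7 on the other 3 arrays named here with GUT2 near that level. The joint difference within the 3 and 12 h groups therefore did not extend to all DEX arrays. These arrays are set side by side as single values, and no groups were formed from them.

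**Figure D3:**
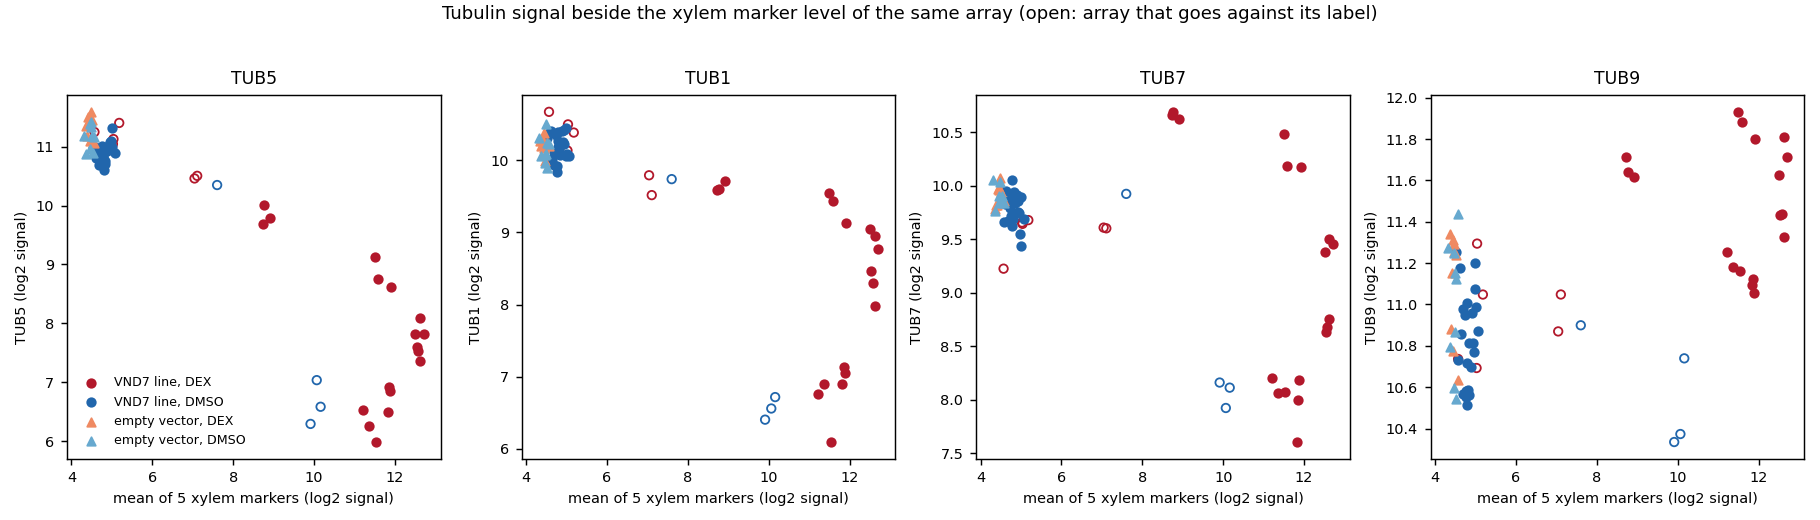
Log2 signal of TUB5, TUB1, TUB7 and TUB9 on each array against the mean log2 signal of 5 xylem vessel markers on the same array, by line and treatment, with open symbols for the 10 arrays that went against their label. TUB5 and TUB1 are high on the arrays with marker means near those of the empty-vector line (4.31 to 4.57) and low on the 30 h DEX arrays and the 3 open DMSO points at 9.91 to 10.16.

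In the empty-vector line no tubulin was called after DEX. By limma 0 of 7 members were called at 9 h (0.0835% of all probe sets), 12 h (0.0879%) and 24 h (0.123%). At each time 0 of 7 had an unadjusted p under 0.05, beside 1.54%, 1.42% and 1.6% of all probe sets. TUB5 had 11.35, 11.46 and 11.49 at 9 h on the DEX arrays, against 11.39, 11.34 and 11.18 on the DMSO arrays. TUB9 had 11.34, 11.24 and 11.15 at 9 h on the DEX arrays, against 11.25, 11.15 and 11.12 on the DMSO arrays. Both overlapped. Over 7 members and 3 times the changes were -0.20 to 0.22.

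The difference between the lines in their response to DEX was tested directly. By limma 0 of 7 members were called at 9 h (22.9% of all probe sets), 12 h (13.4%) and 24 h (0.303%). At these times 2, 1 and 0 of 7 had an unadjusted p under 0.05, beside 38.1%, 29.8% and 11.9% of all probe sets. TUB9 at 12 h had a difference of 0.79 ± 0.24 (adjusted p = 0.0158), past the test and under the minimum. At 12 h TUB9 had 11.62, 11.44 and 11.71 on DEX arrays of the VND7 line, against 10.73, 10.81 and 10.55 with DMSO, and 11.29, 11.25 and 11.31 on DEX arrays of the empty-vector line, against 11.44, 10.87 and 11.27 with DMSO. TUB5 at 9 h had a difference of -3.37 ± 1.43 (adjusted p = 0.0706). Without the arrays against their label, 30.3%, 23.1% and 27.5% of all probe sets were called at 9, 12 and 24 h, and TUB5 was called at 9 h (-3.37), 12 h (-2.12) and 24 h (-4.61) and TUB1 at 9 h (-1.79) and 24 h (-3.60). TUB6 (-1.37) and TUB7 (-2.10) were then also called at 24 h.

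Without DEX the lines differed in TUA1. Over 9, 12 and 24 h TUA1 on DMSO arrays was 6.73 to 8.28 in the VND7 line, with 8.28 on the 24 h array that went against its label and 7.69 next below it, against 7.83 to 8.36 in the empty-vector line. The difference was -0.77 ± 0.15 (1.70-fold lower in the VND7 line, limma adjusted p = 1.4e-04), under the minimum. It was -0.86 without the 24 h array against its label. In the fit that leaves out all arrays against their label, limma gave an adjusted p of 1.5e-07 at this difference. By limma 0 of 7 members were called, where 3.99% of all probe sets were called, and 2 of 7 had an unadjusted p under 0.05, as had 23.9% of all. All 7 differences were negative, at -0.77 to -0.14, but without that 24 h array TUB1 turned to 0.09, against -0.33 with it. TUB5 then had -0.16, against -0.61, and TUB7 -0.08, against -0.30. With all arrays, after TUA1 the next of the 7 members was TUB9 in p (-0.20, adjusted p = 0.194). The shared probe set of TUA3 and TUA5, not counted among them, differed by -0.59 with all arrays. Without the arrays against their label it differed by -0.40 (limma adjusted p = 0.0131), past the test and under the minimum. The construct and anything else in which the cultures of the lines differed cannot be told apart.

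The response at 30 h was set against that at 9 h. By limma 0 of 7 members were called for a change of the effect, where 4.46% of all probe sets were called, and 3 of 7 had an unadjusted p under 0.05, as had 20.7% of all. The differences, 30 h minus 9 h, were -1.68 ± 1.15 for TUB1, -1.13 ± 0.66 for TUB7, -1.12 ± 1.43 for TUB5 and -1.11 ± 0.53 for TUB6. TUA6 had -0.62 ± 0.26 (adjusted p = 0.145) and TUA1 0.77 ± 0.36 (adjusted p = 0.214). Without the arrays against their label TUB1 (adjusted p = 3.0e-04) and TUB6 (adjusted p = 6.0e-06) were called, at the same differences, where 13.5% of all probe sets were called.

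Over the 69 arrays TUB5, TUB1, TUB6 and TUB7 varied together, and TUA6 varied with members both inside and outside these 4. TUB5 correlated with TUB1 at r = 0.957, with TUB7 at 0.791 and with TUB6 at 0.763, and with the shared probe set of TUA3 and TUA5 at 0.959. TUA6 correlated with TUB7 at 0.673, with TUB9 at 0.663, with TUB6 at 0.644, with TUB1 at 0.451 and with TUB5 at 0.315. TUB9 correlated with TUB5 at -0.232, and TUA1 with TUA6 at -0.379. On the 18 empty-vector arrays alone, where little changed, TUB5 and TUB1 correlated at 0.431, TUB9 with TUB5 at 0.710 and TUA6 with TUB5 at 0.801. These are descriptions over arrays that share lines, treatments and normalisation. The 5 genes whose signals were most like TUA6 over the 69 arrays were AT4G21310, AT5G50010, AT5G54200, AT1G05150 and AT1G74910, at r = 0.839 to 0.866. Those most like TUB6 were atpE, AT3G55420, psaB, AT3G57800 and GH9B7, at 0.912 to 0.921, of which atpE and psaB are encoded in the plastid.

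Proteins that bind, cut, link or build microtubules were taken as context. Counts and changes of these and of the other listed genes are given with all arrays only. The 1, 6, 24 and 48 h comparisons hold arrays that went against their label. Of 48 listed microtubule regulators 13 were measured. Between 3 and 12 h 5 of 13 were called as rises and 1 as a fall at each of the 4 times. Of all probe sets, 10.4%, 9.85%, 11.8% and 8.94% were called as rises and 17.4%, 12.7%, 17.7% and 13.2% as falls at 3, 6, 9 and 12 h. At 24 h it was 1 rise and 0 falls of 13, beside 2.89% and 1.46% of all. At 30 h it was 3 rises and 2 falls, beside 12.7% and 15.2%. The list medians were 0.33, 0.78, 0.10 and 0.53 at 3, 6, 9 and 12 h, beside 0 over all probe sets, where ties at the floor hold it. Over the 6809 probe sets with a mean signal no lower than that of the lowest tubulin probe set, the medians were -0.17, -0.10, -0.17 and -0.11.

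Among the regulators that rose at 9 h was KINESIN-13A, a motor that shortens microtubules and is known from the pits of xylem walls, at 11.54 ± 0.17 on DEX arrays against 8.96 ± 0.06 on DMSO arrays (SD, n = 3 each; change 2.58). SP1L4, a relative of the growth-direction protein SPIRAL1, was at 9.94 ± 0.39 on DEX against 5.57 ± 0.12 on DMSO arrays (change 4.37). ATMAP65-6, of the family that links neighbouring microtubules, changed by 1.87, and TON1B, which helps to order the cortical array, by 1.58. With all arrays KINESIN-13A was the regulator still called at 24 h (1.31), and it was called at 30 h too (1.25). AT2G35880 fell at 3, 6, 9, 12 and 30 h, with -2.41 at 9 h, and AT4G32330 fell at 30 h (-2.08). SPR1, the SPIRAL1 gene itself, was called at 6 h only among the 8 times in these fits (1.41).

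Of 24 listed genes for tubulin folding and microtubule nucleation 4 were measured. PFI, which encodes tubulin-folding cofactor E, rose at 6 h, with 7.60 ± 0.08 on DEX arrays against 6.45 ± 0.20 on DMSO arrays (change 1.15). At 6 h 9.85% of all probe sets were called as rises. AT5G17410 fell at 9 h (-1.31), where 17.7% of all were called as falls. AT3G43610 fell at 30 h (-1.64), where 15.2% were called as falls. No other call was made in this list between 1 and 48 h.

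**Figure D4:**
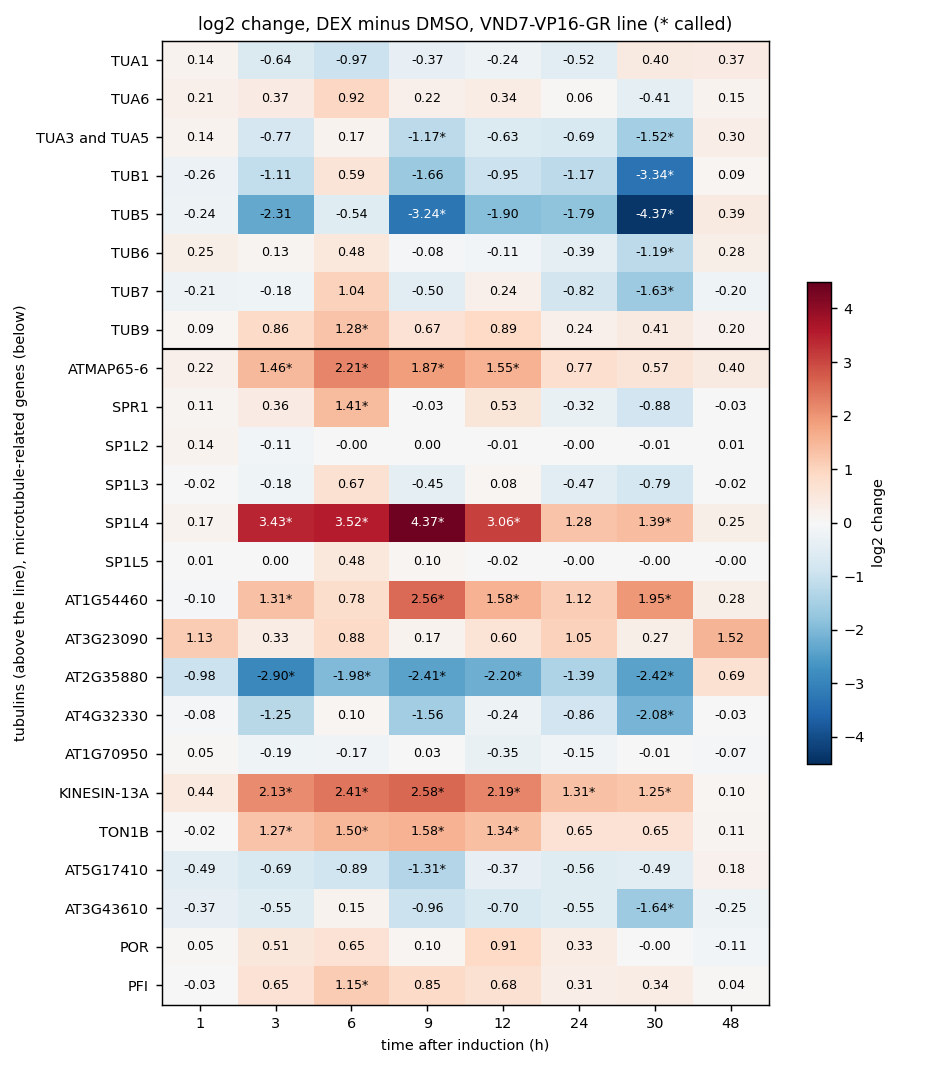
Log2 change, DEX minus DMSO in the VND7 line, of the tubulin probe sets (above the line) and of the measured microtubule regulators and tubulin folding and nucleation genes (below it), by time after induction in h, with an asterisk for a call. KINESIN-13A is called at 6 times from 3 to 30 h, and TUB1, TUB5, TUB6 and TUB7 at 30 h carry the tubulin calls at that time together with the shared probe set of TUA3 and TUA5.

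Markers of other cell types were followed beside the tubulins. Of 4 listed root hair markers 2 were measured, EXPA7 and EXPA18. At 30 h, where 12.7% of all probe sets were called as rises, both of these markers rose (1.53 and 2.05). Their mean was 5.38 to 6.01 on the 30 h DEX arrays and 6.65 to 7.15 on the 3 DMSO arrays with low TUB5, against 3.28 to 3.94 on the empty-vector arrays. Of 6 listed phloem markers 1 was measured, OPS, which had a median of 2.50 on DEX arrays of 3 to 30 h, near the lowest value in the files of 2.14, and 3.43 on VND7 line DMSO arrays. The part of these markers in the tubulin changes was not tested.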

How the data were processed

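What the authors deposited is a log2 signal for each probe set, made with GCRMA per the submitters' processing notes; its version is not given in the sources used here. The scale was read from the values, which end at a common floor of 2.14, and whether further scaling was done is not known. The 64 control probe sets were left out. Of the 22810 probe sets, 13513 named 1 gene, 503 several and 8730 none in the table of names used. Symbols were updated by locus through the TAIR10.1 gene table, and no coordinates or sequences are given.

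A model with a mean for each of the 23 groups was fitted over the 69 arrays with limma 3.58.1 in R 4.3.3, with moderated statistics whose prior follows the mean signal, for 16 comparisons, two-sided. All comparisons share 1 spread per probe set, so arrays elsewhere in the series widen or narrow its errors. The number of arrays limits the precision. No 2 arrays were identical.

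Named are all tubulin genes, the 5 genes most correlated with the alpha and the beta tubulin of highest mean signal (a rule of choice, not a comparison of genes), the called microtubule genes and up to 4 examples of each marker list. The members, lists and the set of 10 arrays were chosen with earlier results of these data known. Alternatives were the compared groups alone, a replicate block, centring, a signal minimum of 4, no trend in the prior, array weights, no fold minimum, leaving out the 10 arrays and leaving out each array.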

Additional observations from a re-analysis of the deposited data

Results flagged for a closer look

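Of the 28 tests of a difference between groups on tubulin probe sets, 1 had an adjusted p under 0.05, with no fold minimum. Of all probe sets, 28%, 16.8% and 0.387% did so for the line differences at 9, 12 and 24 h. For 30 h minus 9 h it was 6.44%. Nothing particular to tubulins is read from this count. The change of TUB9 with DEX at 12 h was larger in the VND7 line than in the empty-vector line by 0.7943 on the log2 scale (limma adjusted p = 0.0158). It was 0.79 without the 10 arrays that went against their label, none of which is a 12 h array. All 3 DEX arrays of the VND7 line were above the 3 DMSO arrays, and those of the empty-vector line overlapped theirs. The cause was not tested.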

How the results depend on the processing

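Counts of called tubulin genes moved with several settings, and TUB9 at 6 h, TUB5 at 9 h and TUB1, TUB5 and TUB7 at 30 h were called in every fit that gave a value for them. At 1 h only 1 DEX array was left without the 10 arrays against their label, so no count is given there. The counts without these arrays were 2 each at 3, 6 and 9 h, 1 at 12 h and 4 at 24 h. For VND7 minus empty-vector effects they were then 2, 1 and 4 at 9, 12 and 24 h, and 2 for 30 h minus 9 h. With array weights, whose estimation stopped before it converged, they were 2 each at 3, 6 and 9 h, 1 at 12 h and 4 at 24 h, then 2, 1 and 4 for the line differences, and 3 for 30 h minus 9 h. After centring they were 1 at 3 h, 3 at 6 h, 2 at 9 h, 1 at 12 h and 3 at 30 h, and 1 each for the line differences at 9 and 12 h. With no fold minimum they were 2 at 3 h, 3 at 6 h, 2 at 9 h, 1 at 12 h and 5 at 30 h (1 a rise), 1 for the line difference at 12 h and 1 for the lines without DEX. By this rule 43%, 35.3%, 43.7%, 35% and 39.7% of all probe sets were called at 3, 6, 9, 12 and 30 h. For the line difference at 12 h it was 16.8%, and for the lines without DEX 14.4%. In the compared groups alone the tubulin counts were 2 at 9 h, 2 for its line difference and 4 for 30 h minus 9 h. With a mean signal of at least 4 they were 1 at 3 h and 1 for the line difference at 9 h. Leaving out single arrays gave 0 to 1 at 3 h, 1 to 4 at 6 h, 0 to 4 at 24 h, and no other change of count. Apart from the fit without the 10 arrays, shares over all probe sets are not given for the other settings. Nothing is read from these counts about tubulins as a class. The shared probe set of TUA3 and TUA5 turned to -1.23 at 1 h without the 10 arrays. Changes that were not called also turned sign without them for TUA6 and TUB6 at 1 h, TUB1, TUB6 and the shared probe set at 6 h, TUA6 at 24 h, TUB9 in the line difference at 24 h and TUB1 between the lines without DEX. Which property of those arrays causes this was not tested. No gene had a further probe set to try.

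In 0 of 11 comparisons did all 3 pairs of same-numbered replicates correlate above 0.1 in their deviations from the group means (8 of 33 pairs did, r from -0.777 to 0.774). Some groups hold arrays against their label, which shift these deviations, so the check cannot tell whether same-numbered replicates were paired. With the replicate number as a block the count was 4 at 30 h, 1 at 6 h and 1 at 9 h, as without it, and no count changed.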

Other observations

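The actin and mitotic genes measured beside the tubulins did not move as 1 group. Of 8 listed actins 2 were measured. ACT11 rose at 3, 6, 9 and 12 h, and at 6 h it was at 10.42 ± 0.10 on DEX arrays against 8.38 ± 0.09 on DMSO arrays (SD, n = 3 each; change 2.04). At 30 h its change was 0.32. ACT12 lay at the floor on all 27 DMSO arrays of the VND7 line and on all 18 empty-vector arrays. Of 14 listed mitotic genes 3 were measured, all Aurora kinases, which act on the spindle and in cytokinesis. AUR2 rose at 3 to 12 h, with 10.61 ± 0.20 at 6 h on DEX arrays against 7.61 ± 0.72 on DMSO arrays (change 2.99). AUR1 fell at 9 h (-1.59) and at 30 h (-2.59), and AUR3 was near the floor.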
